A study of Mus musculus with 103 samples.

Results

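Collagen genes were followed across resting mouse embryonic fibroblasts that had lost the DNA-binding protein CTCF, the cohesin subunit Smc3, the cohesin release factor Wapl, or CTCF and Wapl together. The members were all genes whose symbol reads Col, a number, a and a number, which gave 43 of 23339 genes in the RNA-seq tables and 43 of 20282 in the nascent RNA tables. Sorted by textbook class, 11 encode fibrillar chains, 8 chains of the basement membrane, 9 fibril-associated chains with interrupted triple helices (FACIT) and 15 other chains (beaded filament, network, anchoring and transmembrane types). Of these, 34 reached at least 1 RPKM (reads scaled by transcript length and library depth) in at least 2 libraries and could be tested, with all 11 fibrillar, all 8 basement membrane, 5 FACIT and 10 other members among them. The remaining 9 were Col9a1, Col9a2, Col19a1, Col22a1, Col6a4, Col6a5, Col13a1, Col17a1 and Col25a1, none of which exceeded 0.7985 RPKM in any library.

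All cells were C57BL/6 fibroblasts from E13.5 embryos, and every group had rested for 10 d. Ctcf(fl/fl) clones 1 and 2, Ctcf(fl/fl) Wapl(fl/fl) clones 3 and 4, and wild-type clones 2 and 3 were measured untreated or after 4 h with Cre-carrying adenovirus (Adeno-Cre), although only clone 4 of the double-floxed cells has an Adeno-Cre library in the main table. Cells with Cre-ER at Rosa26 were measured untreated or after 2 to 3 d of 4-hydroxytamoxifen, which activates that recombinase. They were Smc3(fl/fl) clone 1, Smc3(fl/-) clones 2, 3 and 4, Wapl(fl/-) clones 1 and 2, and Rosa26(CreER/+) clones 2 and 3 without a floxed gene, so most Smc3 clones and both Wapl clones lacked 1 allele before treatment. A group therefore held 1 to 4 libraries, each a polyadenylated RNA library with 8.5 to 41.1 M reads in genes, and p-values measure the spread between these clones. Ctcf RNA fell from 11.6 to 13.2 RPKM in untreated Ctcf(fl/fl) clones to 4.04 and 4.23 RPKM after Adeno-Cre, and from 9.26 and 12.5 to 3.76 RPKM in the double-floxed cells. Wapl RNA (listed as Wapal) was 1.48 and 1.80 RPKM before and 0.780 and 0.914 RPKM after hydroxytamoxifen. Smc3 RNA over the whole gene was 7.62 to 10.5 RPKM before and 10.9 to 13.2 RPKM after hydroxytamoxifen, so it does not check the deletion of the floxed exons.

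Collagens are triple helices of 3 chains that are hydroxylated, glycosylated and folded in the endoplasmic reticulum, secreted as procollagens and then trimmed and crosslinked outside the cell. Fibrillar types I, III, V and XI build the tension-bearing fibrils of connective tissue, FACIT collagens decorate those fibrils, type VI forms beaded microfilaments around cells, and type IV is the network of basement membranes. Fibroblasts are the main makers of types I, III, V and VI. Type IV genes lie head to head in pairs (Col4a1 with Col4a2, Col4a3 with Col4a4, Col4a5 with Col4a6).

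Collagen transcripts took 3.09% to 8.94% of all reads in genes. Ranked by mean RPKM over the 27 libraries, Col1a1 and Col1a2, the chains of type I, came first at 4415 (1516 to 7791) and 2352 (835.6 to 3783), followed by Col3a1 at 1859. Col5a1 at 482.7 and Col5a2 at 332.7, which nucleate type I fibrils, stood beside Col6a1 at 341.6, Col4a2 at 304.5, Col4a1 at 302.6 and Col6a2 at 282.8. Col8a1, a short-chain network collagen, had 222, the FACIT Col12a1 178.7 and the remaining type VI chain, Col6a3, 60.57. These 12 were the members with a mean of at least 50 RPKM, and RPKM allows levels of different genes to be set side by side per length. Ratios between chains that share a trimer varied by pair: Col1a1 to Col1a2 ran from 1.35 to 2.91 and Col4a1 to Col4a2 from 0.77 to 1.20, while Col6a1 to Col6a2 ran from 1.02 to 2.50. The ratio of Col5a1 to Col5a2 was the widest of these, from 0.39 in the double-floxed Adeno-Cre library to 2.84 in untreated Smc3 clone 1.

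The untreated lines differed before any deletion. In the 8 untreated libraries of lines with Rosa26 Cre-ER, Col6a1 lay at 443 to 628 RPKM, against 112 to 338 RPKM in the 6 untreated libraries of lines without it. Col4a1 showed the opposite order, with 152 to 343 RPKM in the Cre-ER lines and 391 to 554 RPKM in the others. The widest gap was that of Col10a1, a network collagen best known from hypertrophic cartilage, which had 0.0684 to 6.24 RPKM in the Cre-ER lines and 63.4 to 160.5 RPKM in the others. Of the 34 tested members, 5 were higher in every Cre-ER library than in any other (Col5a3, Col6a1, Col6a2, Col6a6 and Col23a1), where 5.33% of all tested genes were, and 6 were lower in every one (Col4a1, Col4a2, Col8a1, Col10a1, Col12a1 and Col28a1), where 3.68% were. This comparison was chosen after the values were seen, and line, genotype and sequencing run cannot be told apart in it. Osteoblast markers, 11 genes in the table, summed to 38.3 to 550 RPKM in the untreated Cre-ER lines and 80.9 to 913 RPKM in the others, and smooth muscle and pericyte markers, 8 genes, to 164 to 1010 RPKM and 1650 to 5330 RPKM. The other marker lists, those of chondrocytes and macrophages among them, are not set side by side for these lines here. The part of any such cells in the difference was not tested.

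**Figure D1:**
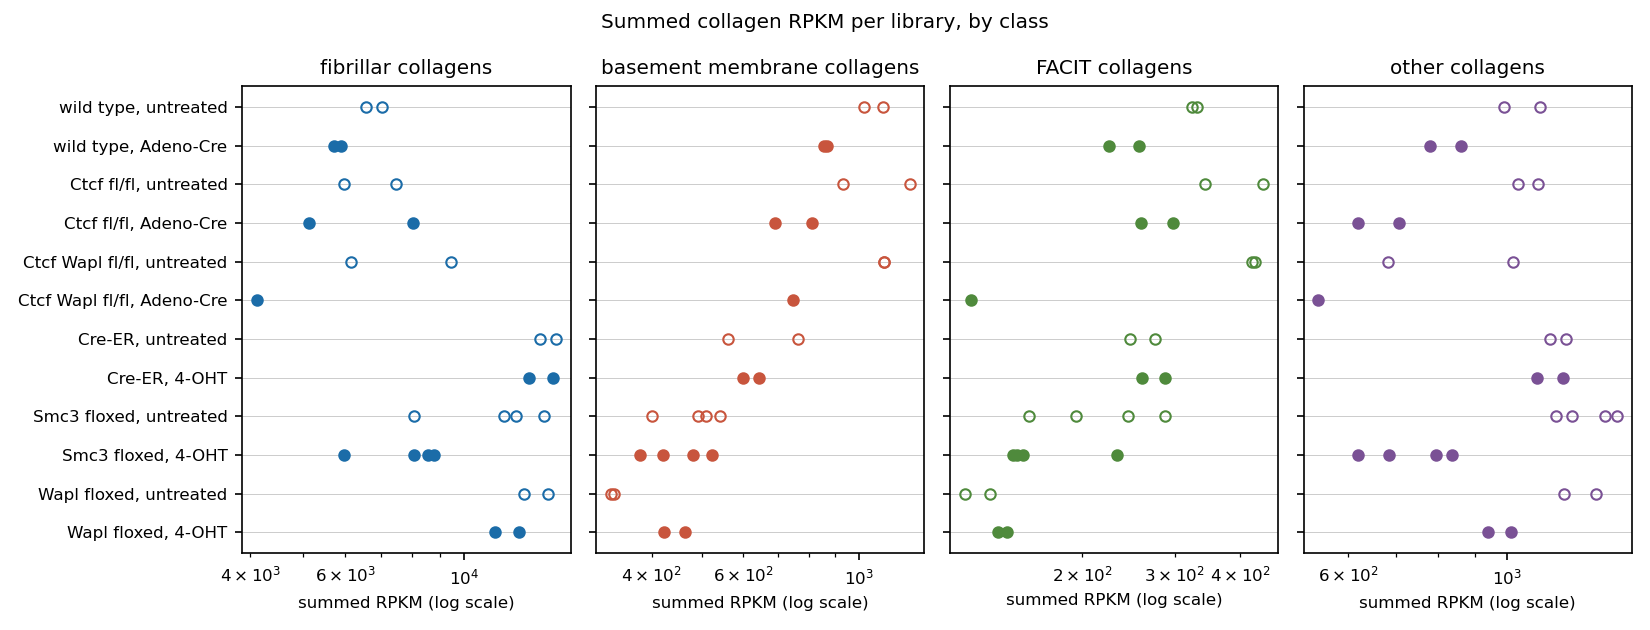
Summed RPKM of each collagen class (x axis, log scale, a separate range per panel) in every library, with groups as rows. Open circles are untreated and filled circles treated libraries. The fibrillar sum was 13840 and 14800 in untreated Cre-ER cells and 6573 and 7018 in untreated wild-type cells, and the Adeno-Cre library of double-floxed cells had the lowest fibrillar and other sums of the panel.

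Promoter sequence is shown for the members that passed the threshold in the most comparisons, 3 each, since these carry the results below. They are Col6a2 (type VI), Col8a2 (type VIII), Col28a1 (a type VI-like chain) and Col15a1 (a basement membrane zone collagen). Each line gives the 250 bases before the annotated start, 5′ to 3′ on the gene's strand, from RefSeq on GRCm38.p6, and capitals mark GC boxes (GGGCGG on either strand), the site read by Sp1-family factors.
Col6a2, chr10:76623631-76623880, minus strand: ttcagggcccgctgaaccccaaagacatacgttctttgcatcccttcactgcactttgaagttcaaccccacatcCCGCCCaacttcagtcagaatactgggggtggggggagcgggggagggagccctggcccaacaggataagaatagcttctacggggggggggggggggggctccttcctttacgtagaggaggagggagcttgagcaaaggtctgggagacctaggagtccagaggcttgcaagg
Col8a2, chr4:126286544-126286793, plus strand: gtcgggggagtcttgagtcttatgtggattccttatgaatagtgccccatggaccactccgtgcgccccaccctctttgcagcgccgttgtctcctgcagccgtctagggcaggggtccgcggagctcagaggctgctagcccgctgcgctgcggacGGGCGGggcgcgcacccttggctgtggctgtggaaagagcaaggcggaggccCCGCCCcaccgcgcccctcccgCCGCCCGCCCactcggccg
Col28a1, chr6:8192618-8192867, minus strand: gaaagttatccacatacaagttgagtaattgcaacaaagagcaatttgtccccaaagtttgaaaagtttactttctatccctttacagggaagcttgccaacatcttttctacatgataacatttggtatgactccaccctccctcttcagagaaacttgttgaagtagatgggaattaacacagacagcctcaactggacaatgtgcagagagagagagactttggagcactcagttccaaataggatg
Col15a1, chr4:47207762-47208011, plus strand: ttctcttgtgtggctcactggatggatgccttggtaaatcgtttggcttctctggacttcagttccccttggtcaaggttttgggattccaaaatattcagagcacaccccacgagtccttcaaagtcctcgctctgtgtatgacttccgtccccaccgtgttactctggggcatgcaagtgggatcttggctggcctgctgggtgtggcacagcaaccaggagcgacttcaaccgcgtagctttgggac
The Col8a2 window is rich in G and C (70.0%) and holds 4 GC boxes, of which 2 overlap, Col6a2 holds 1, and Col28a1 (40.4% G and C) and Col15a1 (53.6%) hold none. The Col28a1 window overlaps the annotated Col28a1 gene, and the Col15a1 window overlaps the annotated Col15a1 and Gm12426 genes. These windows are therefore not upstream of the whole gene, whereas those of Col6a2 and Col8a2 overlap no annotated gene. Over the 38 windows of the 35 collagen genes in the table, GGGCGG occurred in 57.9%, against 32.7% of all 32851 windows. CCAAT occurred in 34.2% against 33.8%, TATAAA in 13.2% against 12.4%, and a core of the CTCF motif in 0 of 38 against 2.07%, each counted on both strands. A match or its absence describes these letters in this window and nothing more.

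The abundant type IV pair has its starts close together on chromosome 8, with Col4a2 on the plus strand from position 11312805 and Col4a1 on the minus strand from 11312826, 21 bases apart. The 30 bases around the CCAAT box of this region, in capitals, are shown because the pair is known for a shared, bidirectional promoter. It begins 32 bases before the Col4a2 start and lies inside the annotated Col4a1 gene.
Col4a2, chr8:11312761-11312790, plus strand: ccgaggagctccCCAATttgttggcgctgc

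Across the 6 treatments and 5 tests of a difference described below, 22 of the 34 tested members passed at least once without the clone block: 7 fibrillar, 6 basement membrane, 3 FACIT and 6 other. The other 12 were Col3a1, Col5a2, Col2a1, Col11a2, Col4a1, Col4a6, Col14a1, Col20a1, Col8a1, Col6a3, Col6a6 and Col10a1. Of the 22, Col4a3, Col4a4 and Col9a3 reached the filter on low values only through libraries in which they were high, so their calls are a description. The share of all genes that passed at least once was not counted, so 22 of 34 cannot be set against a background. Shares of all genes are given below for each comparison.

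After Smc3 deletion 14 members passed the test. Of the fibrillar chains 5 of 11 fell (Col1a1, Col5a1, Col5a3, Col11a1 and Col24a1), as did Col6a1, Col6a2, Col12a1, Col15a1 and Col18a1, while Col4a5 and Col16a1 rose and Col4a3 and Col4a4 were higher. In a limma model over 12604 genes, 10 of the 34 tested members were lower and 4 were higher at an adjusted p under 0.05, where 5.6% of all genes were lower and 9.37% higher. The 4 include Col4a3 and Col4a4, which could be tested only because they reached 1 RPKM in treated Smc3 libraries, so the share of higher members is not comparable with that of all genes. With the clone as a block in the model 13 were lower and 4 higher, Col1a2, Col5a2 and Col6a3 being added, where 12.6% of all genes were lower and 24.0% higher. The median log2 fold change of the members was -0.186 and that of all genes 0.0669. Collagen reads were a smaller share in each treated clone, going from 7.49% to 5.34% of all reads in clone 1, 8.27% to 5.31% in clone 2, 5.47% to 3.72% in clone 3 and 7.13% to 4.91% in clone 4. Cre-ER cells without a floxed gene went the same way after hydroxytamoxifen. Their share was 8.94% then 8.75% in clone 2 and 8.30% then 8.04% in clone 3.

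Among the fibrillar genes 5 of 11 fell. Col1a1 was at 6262, 7791, 3774 and 6678 RPKM in untreated clones 1 to 4 and at 3834, 4224, 2510 and 3295 RPKM in the treated ones, a log2 fold change of -0.80 (SE 0.23, limma adjusted p = 0.0215). It was lower in every clone, although the groups overlapped because untreated clone 3 was low. The call was lost in 5 of 8 fits that each left out 1 library (untreated clone 1, 2 or 4, or treated clone 3 or 4), with adjusted p up to 0.0875. Col5a1 went from 637, 605, 493 and 478 RPKM to 402, 324, 212 and 234 RPKM (-0.95, SE 0.19, adjusted p = 0.00212), with no overlap. Here and below, the share of all genes without overlap after a treatment was not counted, so separate groups are a description. Col11a1, a type XI chain that sets fibril diameter, went from 44.9, 80.0, 44.4 and 70.8 to 14.7, 40.2, 23.5 and 28.0 RPKM (-1.18, SE 0.30, adjusted p = 0.0117). Col5a3 (-0.94, adjusted p = 0.0077) and the scarce Col24a1 (-0.52, adjusted p = 0.0232) also fell in all 4 clones, Col24a1 from 0.184 to 0.775 RPKM to at most 0.0658 RPKM, or 7 reads. The Col24a1 call was lost without untreated clone 2 or 3 or treated clone 3 or 4. Col1a2, the partner chain of Col1a1, changed by -0.28 (adjusted p = 0.379) and Col3a1 by -0.20 (adjusted p = 0.604), and the ratio of Col1a1 to Col1a2 was lower in each treated clone than in its untreated library.

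In type VI, Col6a1 went from 628, 526, 541 and 443 RPKM to 319, 294, 230 and 219 RPKM (-1.01, SE 0.23, adjusted p = 0.00475). Col6a2 went from 489, 396, 479 and 350 RPKM to 220, 201, 126 and 134 RPKM (-1.35, SE 0.26, adjusted p = 0.00183). Neither gene had overlapping groups. Col6a3, the longest chain of type VI, was lower in each clone (140.0, 72.3, 80.5 and 54.6 to 83.0, 47.9, 22.6 and 23.6 RPKM) but passed only with the clone as a block (-1.07, adjusted p = 0.116 without the block and 0.000846 with it).

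Basement membrane genes split. Col15a1 dropped from 4.70, 2.70, 2.76 and 3.61 RPKM to 0.402, 0.189, 0.0923 and 0.0791 RPKM (-1.89, SE 0.25, adjusted p = 6.8e-05). Col18a1, whose C-terminal fragment is endostatin, dropped from 21.7, 23.5, 23.0 and 16.9 RPKM to 11.9, 7.98, 2.56 and 1.95 RPKM (-1.90, SE 0.37, adjusted p = 0.00183). Col4a5, a chain of the specialised type IV networks of kidney and other basement membranes, rose from 19.7, 30.0, 34.6 and 28.8 RPKM to 51.2, 59.7, 105.1 and 95.5 RPKM (1.39, SE 0.23, adjusted p = 0.000525). None of these 3 had overlapping groups. Col4a3 (0.71, adjusted p = 0.00131) and Col4a4 (0.82, adjusted p = 0.0026), its partners in those networks, rose from at most 0.106 and 0.167 RPKM to 0.248 to 1.14 and 0.239 to 1.71 RPKM. Both of these passed the filter on low values only through treated Smc3 libraries, so their calls are not independent of it. Col4a6, which lies head to head with Col4a5, changed by 0.16 (adjusted p = 0.763), and the abundant Col4a1 and Col4a2 by -0.34 (adjusted p = 0.175) and -0.17 (adjusted p = 0.514).

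Of the FACIT genes, Col16a1 rose from 35.7, 49.8, 37.9 and 39.4 RPKM to 49.6, 73.2, 75.7 and 91.7 RPKM (0.80, SE 0.18, adjusted p = 0.00628), in every clone but with touching groups. Col12a1, which links type I fibrils to their surroundings, fell in clones 2 to 4 (132, 236 and 196 to 58.1, 57.3 and 31.6 RPKM) and went from 113 to 177 RPKM in clone 1 (-1.29 over the 4 clones, adjusted p = 0.0156, and 0.0618 without treated clone 4). Clone 1, the only one with both alleles floxed, also had the smallest changes of Col4a3, Col4a4 and Col18a1, but the largest fall of Col11a1 (44.9 to 14.7 RPKM). Its untreated library was the shallowest, with 8.47 M reads in genes.

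**Figure D2:**
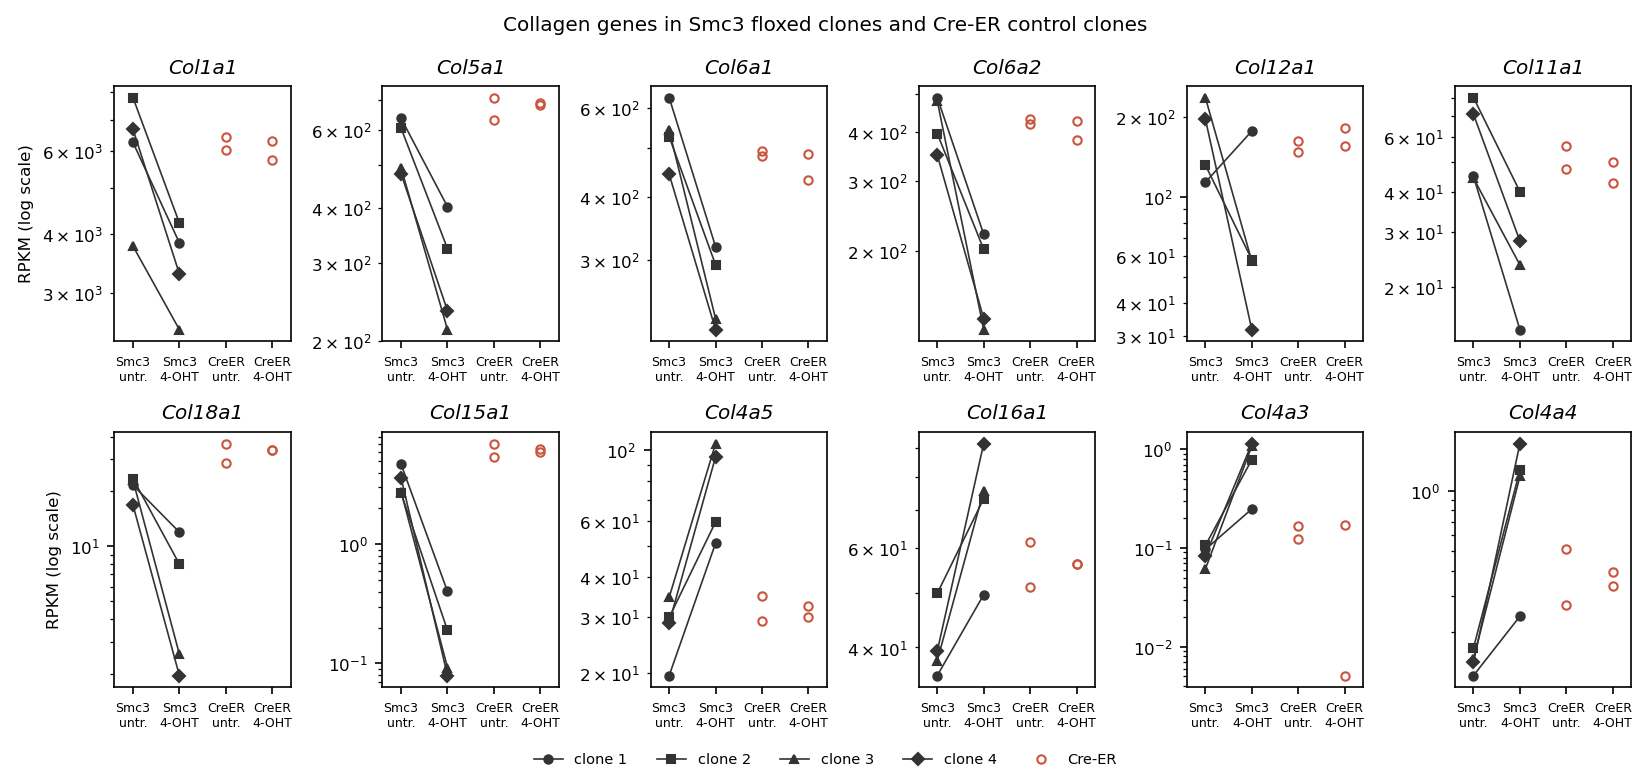
RPKM (y axis, log scale, a separate range per gene) of 12 collagen genes in untreated and hydroxytamoxifen-treated libraries. Black lines join the libraries of 1 Smc3 clone and open circles are the Cre-ER clones without a floxed gene. The lines slope down in all 4 clones for Col1a1, Col5a1, Col6a1, Col6a2, Col11a1, Col18a1 and Col15a1, up in all 4 for Col4a5, Col16a1, Col4a3 and Col4a4, and up in clone 1 only for Col12a1.

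Hydroxytamoxifen in Cre-ER cells without a floxed gene changed 0 members, and 0.0% of all genes passed in either direction. At an unadjusted p under 0.05 there were 0 members as well, and 0 with the clone block. Col15a1 was at 7.01 and 5.40 RPKM before and 6.28 and 5.95 RPKM after, and Col4a5 at 35.0 and 29.2 before and 30.1 and 32.6 after. Set against this control in a test of the difference, Col15a1 passed (-1.88, SE 0.43, adjusted p = 0.0383), where 0.762% of all genes were lower and 0.468% higher. Col4a5 had a difference of 1.42 (adjusted p = 0.103) and Col6a2 one of -1.28 (adjusted p = 0.226). With the clone block 10 members were lower and 2 higher (Col4a5, and Col4a3 with the limit given above), where 4.31% and 6.35% of all genes were. The 1 call without the block was lost when any of the 4 Cre-ER libraries, untreated Smc3 clone 1 or 4, or treated Smc3 clone 2, 3 or 4 was left out, and 7 members passed without treated Smc3 clone 1.

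Genes that handle collagen moved both ways after Smc3 deletion. The shares of all genes to set beside these counts are 9.37% higher and 5.6% lower. Of 17 tested genes for chain modification and folding, 5 rose and 2 fell. The prolyl 4-hydroxylase subunit P4ha1 rose from 47.2 to 54.3 RPKM to 82.6 to 135.4 RPKM and its relative P4ha2 fell from 62.3 to 85.7 RPKM to 25.4 to 52.2 RPKM, while the prolyl 3-hydroxylase Leprel1 fell by 1.67 on the log2 scale. Of 17 tested genes for export, processing and crosslinking, 3 rose and 5 fell. The procollagen N-proteinase Adamts2 fell from 111.1 to 205.6 RPKM to 34.5 to 49.7 RPKM, without overlap. Of 14 tested partners of the basement membrane 5 rose and 0 fell, among them nidogens Nid1 (130.9 to 192.3 RPKM to 263.4 to 391.4 RPKM) and Nid2 (1.58 on the log2 scale) and the peroxidasin Pxdn, which crosslinks type IV collagen. Of 9 tested collagen receptors 2 rose (Ddr2 and Mrc2) and 1 fell, Itga11, the fibrillar collagen-binding integrin chain, from 29.5 to 46.4 RPKM to 11.5 to 18.8 RPKM. In the test of the difference from hydroxytamoxifen in Cre-ER cells, where 0.468% of all genes were higher and 0.762% lower, P4ha1, Nid1 and Pxdn were higher and Leprel1, Adamts2 and Itga11 lower, and none of the other partner genes passed.

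In these bulk libraries fewer cells of a type and less RNA per cell cannot be told apart. Of 13 fibroblast markers none passed after Smc3 deletion without the clone block and 3 were higher and 3 lower with it, and their sum was 4520 to 5700 RPKM before and 4100 to 6960 RPKM after. The 10 macrophage markers summed to 38.8 to 1500 RPKM before and 24.8 to 247 RPKM after, with 0 of 10 lower without and 7 with the clone block, and none of the 10 was at 0 throughout a group. The 10 endothelial markers summed to 12.4 to 22.1 and 1.5 to 11 RPKM, of which Flt1 and Egfl7 fell and Cldn5 was at 0 in the untreated libraries. Smooth muscle and pericyte markers summed to 304 to 889 and 520 to 2840 RPKM, with Acta2 higher, osteoblast markers to 38.3 to 274 and 16.9 to 42.1 RPKM, with Spp1 lower, and Schwann and neural markers to 39.0 to 42.9 and 27.8 to 58.0 RPKM, with 1 of 6 tested higher and 3 lower. Of 4 tested muscle markers 1, Myh8, was higher. Of 7 tested chondrocyte markers none passed in any of the 4 deletions without the block, and with it 1 was higher and 2 were lower after Smc3 deletion and 1 was higher after Ctcf deletion. The part of these cells in the collagen changes was not tested.

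Ctcf deletion lowered 4 members and raised none: Col27a1, Col28a1, Col8a2 and Col4a2, where 2.63% of all genes were lower and 5.04% higher. The 3 most abundant fibrillar genes did not pass (Col1a1 -0.12, adjusted p = 0.904). The median was -0.197 over the members and 0.0451 over all genes. Col27a1, a fibrillar chain of cartilage, was at 3.04 and 4.96 RPKM untreated and at 0.892 and 1.19 RPKM after Adeno-Cre (-1.27, SE 0.35, limma adjusted p = 0.0335). Col28a1 was at 8.88 and 8.54, then 4.04 and 2.93 RPKM (-1.13, SE 0.32, adjusted p = 0.0387). Col8a2, the partner of Col8a1 in hexagonal networks such as that of Descemet's membrane, was at 45.6 and 36.2, then 15.2 and 15.4 RPKM (-1.36, SE 0.40, adjusted p = 0.0475). Col4a2 was at 451 and 626, then 289 and 370 RPKM (-0.70, SE 0.21, adjusted p = 0.0496), and its head-to-head neighbour Col4a1 at 391 and 554, then 280 and 362 RPKM (-0.55, adjusted p = 0.167). No group overlapped its counterpart in these 5 genes, but the share of all genes without overlap in such small groups was not counted.

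The Ctcf calls lay close to the threshold: 1 was left without untreated clone 1, and 0 were left without untreated clone 2 or without treated clone 1 or 2. With the clone as a block 9 members passed, where 9.35% of all genes were lower and 15.7% higher. Col6a1 (-0.69) and Col24a1 (-0.51) joined the lower ones, and Col14a1 (1.81, from 5.41 and 5.88 to 23.7 and 21.1 RPKM), Col5a2 (0.61) and Col4a5 (0.53) were higher.

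Adeno-Cre alone in wild-type cells gave 0 calls among the members, where 0.54% of all genes were lower and 2.7% higher. At an unadjusted p under 0.05 there was 1, Col8a2, which went from 45.6 and 30.4 RPKM to 11.3 and 15.7 RPKM (-1.42, SE 0.40, adjusted p = 0.0623, and 0.00311 with the clone block). The change after Ctcf deletion was -1.36, and the difference between Ctcf deletion and this control was 0.061 for Col8a2 (limma adjusted p = 0.9998). With the block Col5a3 passed too (-0.38, adjusted p = 0.0461), where 7.24% of all genes were lower and 15.8% higher. Col4a2 was at 461 and 511 RPKM before and 374 and 392 RPKM after (-0.34, limma adjusted p = 0.416). Its change after Ctcf deletion differed from this control by -0.36 (limma adjusted p = 0.891). Col27a1 was at 4.75 and 5.10 before and 4.36 and 4.32 RPKM after, and Col28a1 at 8.64 and 9.94 before and 10.2 and 8.31 RPKM after. The difference between Ctcf deletion and this control was -1.12 for Col27a1 and -1.11 for Col28a1, with adjusted p of 0.496 and 0.418 without and 0.0237 and 0.0284 with the block, where 3.53% of all genes were lower and 3.42% higher. Without the block 0 members passed in that difference, where 0.722% and 0.738% of all genes were lower and higher, and 4 had an unadjusted p under 0.05.

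Among the partner genes Ctcf deletion lowered the prolyl 3-hydroxylase Leprel2 from 86.8 and 88.9 to 29.4 and 33.8 RPKM and the integrin chain Itga11 from between 149.1 and 203.0 RPKM to between 73.1 and 93.1 RPKM. The galactosyltransferase Glt25d1, the prolyl hydroxylase subunit P4hb, Creb3l2 and Loxl4 rose. In counts, 2 of 17 modification genes rose and 1 fell, 2 of 17 export and crosslinking genes rose and 1 of 9 receptors fell, where 5.04% of all genes were higher and 2.63% lower. Of the genes named here, Leprel2 (-1.20) and Creb3l2 (1.67) also passed in the difference from Adeno-Cre in wild-type cells, and Itga11, Glt25d1, P4hb and Loxl4 did not. None of 13 fibroblast markers passed without the clone block, while 1 was higher and 3 were lower with it, and their sum was 4990 to 5740 RPKM before and 6710 to 7150 RPKM after. Schwann and neural markers summed to 46.1 to 47.1 RPKM before and 174 to 178 RPKM after, with Tubb3 the 1 of 6 tested that passed. Tubb3 was also higher after Adeno-Cre in wild-type cells (1.62, adjusted p = 0.0126), and the difference did not pass. The muscle marker Acta1 was higher after Ctcf deletion (1.74, adjusted p = 0.0112). The part of these markers was not tested.

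Removing Wapl together with CTCF lowered Col8a2, Col12a1, Col28a1, Col4a2, Col6a1 and Col6a2 and 4 of 11 fibrillar chains, and Col7a1 rose. In this comparison 10 of 34 members were lower and 2 higher, where 5.34% of all genes were lower and 10.5% higher, and the 2 include Col9a3, with the limit given below. The median was -0.348 over the members and 0.175 over all genes. Collagens took 6.60% and 4.83% of reads in the untreated libraries of clones 3 and 4 and 3.09% in the treated library of clone 4. Wild-type cells also had a smaller share after Adeno-Cre, 5.209% then 4.245% in clone 2 and 5.007% then 4.308% in clone 3. With 1 treated library its spread is assumed to equal that of the other groups.

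Among the members, Col8a2 had the largest fold change of this comparison on the log2(RPKM + 1) scale, from 25.4 RPKM in untreated clone 3 and 23.6 RPKM in untreated clone 4 to 2.18 RPKM (-3.002, SE 0.49, limma adjusted p = 0.000471). Col12a1 went from 382 and 373 to 67.3 RPKM (-2.47, adjusted p = 0.00855, and 0.057 with the clone block). Type VI genes differed between the untreated clones: Col6a2 was at 265.5 RPKM in clone 3 and 74.3 RPKM in clone 4, then 23.1 RPKM (-2.56, SE 0.46, adjusted p = 0.000878), and within clone 4 alone the change was -1.64 (block adjusted p = 0.0016). Col6a1 was at 338.1, 111.5 and then 57.8 RPKM (-1.73, or -0.94 within clone 4, which passed as well). Col6a3 was at 64.4, 13.8 and then 22.6 RPKM (-0.40, adjusted p = 0.792), higher than untreated within clone 4. Col28a1 was at 12.1, 5.29 and then 1.37 RPKM (-1.94, adjusted p = 0.00261). The treated library lay below both untreated ones in each of these genes but Col6a3.

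In the fibrillar class 4 of 11 fell: Col11a1 from 50.7 and 135.5 to 23.5 RPKM (-1.78, adjusted p = 0.0267), Col1a2 from 2592 and 1332 to 835.6 RPKM (-1.15, adjusted p = 0.0283), Col5a1 from 654 and 388 to 239 RPKM (-1.07, adjusted p = 0.0326), and Col24a1 from 0.909 and 1.92 to 0.328 RPKM (-0.83, adjusted p = 0.0351). Col1a1 went from 4519 and 2437 to 1516 RPKM (-1.13, adjusted p = 0.0577, and 0.0374 with the block). Col4a2 fell from 598 and 488 to 293 RPKM (-0.88, adjusted p = 0.0266, and 0.059 with the block). Of the genes that rose, Col7a1, which forms anchoring fibrils, went from 2.54 and 4.86 to 10.8 RPKM (1.37, adjusted p = 0.00586). Col9a3 went from 0.0386 and 0.283 to 1.35 RPKM (1.02, adjusted p = 0.0343), or 4, 14 and 72 reads. It passed the filter on low values only through this library and 1 treated Smc3 library.

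With the clone block 12 members were lower and 3 higher, where 8.17% of all genes were lower and 14.7% higher. Rescaling the libraries by the median of ratios moved the median of all genes from 0.175 to 0.00821 and that of the members from -0.348 to -0.536. The calls over all genes went from 1324 higher and 673 lower to 715 higher and 909 lower, and those of the members to 1 higher and 10 lower. The calls of Col1a2, Col4a2, Col5a1, Col7a1 and Col9a3 were lost without untreated clone 3, and those of Col11a1 and Col24a1 without untreated clone 4. Leaving out untreated clone 3 left 8 members lower and 0 higher, and leaving out untreated clone 4 gave 9 and 3. For Smc3 the same rescaling gave 878 higher and 798 lower over all genes, against 1181 and 706, and still 4 and 10 members.

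Tested against Adeno-Cre in wild-type cells, the combined deletion lowered Col6a2 (-2.50, SE 0.59, adjusted p = 0.021) and Col28a1 (-1.93, SE 0.51, adjusted p = 0.04), where 1.72% of all genes were lower and 2.15% higher. Wild-type Col6a2 was at 235 and 234 RPKM before and 245 and 208 RPKM after. The difference for Col8a2 was -1.59 (adjusted p = 0.194, and 0.0363 with the block). That for Col4a2 was -0.54 (limma adjusted p = 0.436). With the block 6 members were lower and 1 higher, where 5.76% and 6.26% of all genes were. Both calls without the block were lost when untreated clone 2 or 3 or treated clone 2 of the wild-type cells was left out, 1 was left without treated wild-type clone 3, and 4 members passed without untreated double-floxed clone 4.

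**Figure D3:**
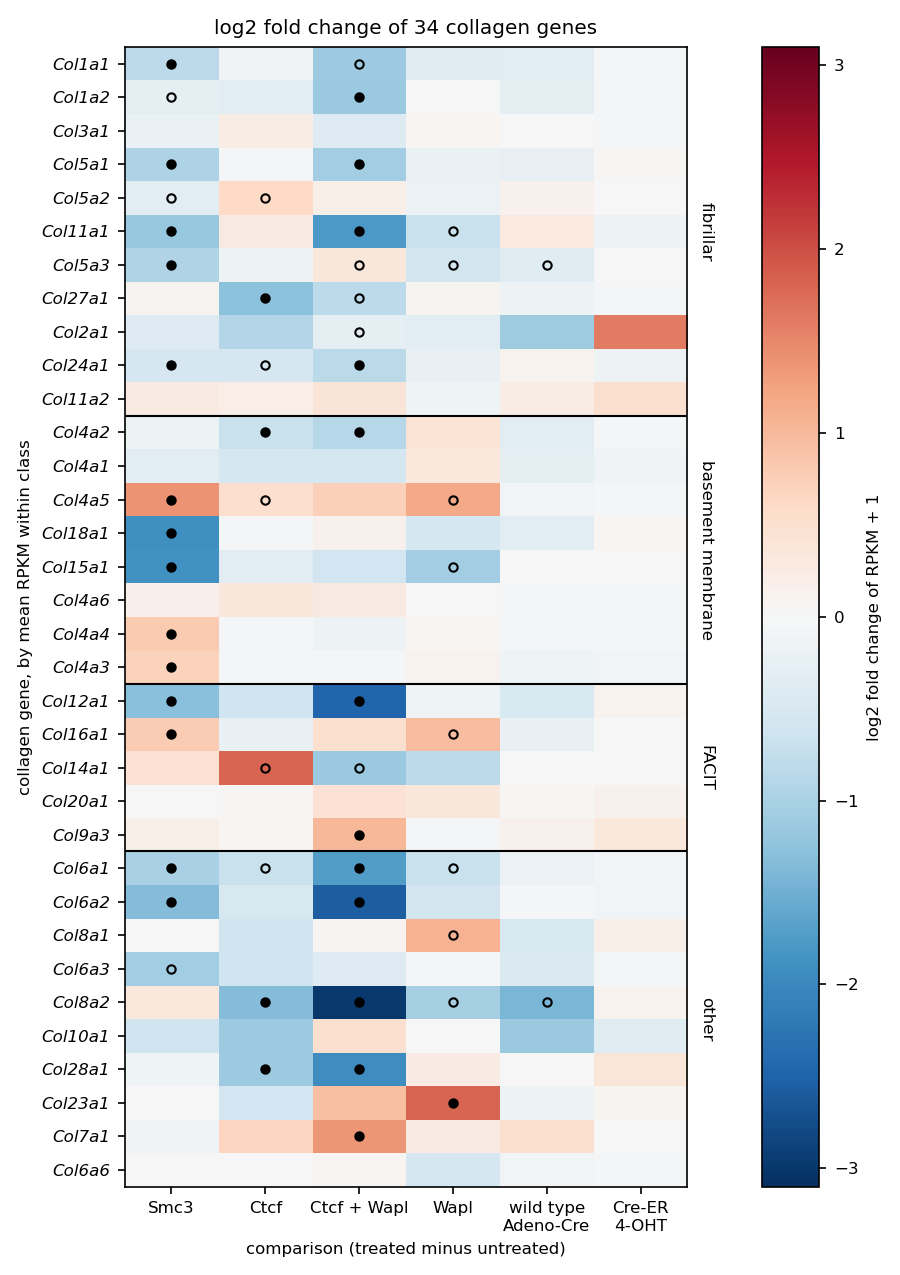
Log2 fold change of RPKM + 1 (colour, blue lower and red higher after treatment) of the 34 tested collagen genes (rows, by class and mean RPKM) in the 4 deletions and 2 controls (columns). Filled circles mark an adjusted p under 0.05 in the model without the clone block and open circles one in the model with it only. The Smc3 and the Ctcf and Wapl columns hold 14 and 12 filled circles and the Cre-ER control column holds none of either kind.

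Several enzymes of collagen maturation also fell in the doubly deleted library. Lox, the main crosslinking oxidase of fibrillar collagen, went from 1418 and 1999 RPKM to 306.5 RPKM (-2.45 on the log2 scale), Adamts2 from between 29.5 and 72.1 to 6.18 RPKM, and Leprel2 from between 62.8 and 82.0 to 18.0 RPKM. Creb3l1, Leprel1 and Crtap fell as well, whereas Loxl4, Pcolce2, Creb3l2 and Glt25d1 rose. This makes 1 higher and 3 lower of 17 modification genes and 3 higher and 3 lower of 17 export and crosslinking genes. The shares of all genes were 10.5% higher and 5.34% lower. Itga11 fell from between 166.7 and 184.2 to 13.8 RPKM, and the receptors Ddr1 and Gpr56 rose, as did the basement membrane proteoglycan Agrn. In the difference from Adeno-Cre in wild-type cells, where 2.15% of all genes were higher and 1.72% lower, Leprel1, Leprel2, Adamts2, Creb3l1 and Itga11 were lower and Creb3l2, Loxl4 and Pcolce2 higher, while Lox, Crtap, Glt25d1, Ddr1, Gpr56 and Agrn did not pass. Of 13 fibroblast markers 2 fell, Pdgfrb from between 149.5 and 153.0 to 57.0 RPKM and Pdgfra from between 2.81 and 20.8 to 1.33 RPKM, while the sum of all 13, 5110 RPKM, lay between the untreated 4230 and 6210 RPKM. The median log2 fold change of the 13 was -0.625, and that of all genes 0.175. In the difference from Adeno-Cre in wild-type cells these medians were -0.869 and 0.105. Muscle markers summed to 443 RPKM against 105 to 163 RPKM untreated, and epithelial markers to 58.1 against 12.3 to 14.3 RPKM, with Acta1 and Krt19 higher and Myf5 and Myod1 at 0. Macrophage markers summed to 84.3 to 638 RPKM before and 474 RPKM after, with 0 of 10 called, and smooth muscle and pericyte markers to 3990 to 5330 and 6080 RPKM, with Mcam higher. Their part was not tested.

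Wapl deletion alone changed 1 member. Col23a1, a transmembrane collagen, rose from 5.94 and 1.70 RPKM to 17.1 and 11.5 RPKM (1.80, SE 0.36, limma adjusted p = 0.0121), where 1.5% of all genes were higher and 0.928% lower. The call was lost without treated clone 1 (adjusted p = 0.284) or untreated clone 2 (0.222). The median was -0.0413 over the members and -0.0105 over all genes. With the clone block 9 passed, where 7.62% of all genes were higher and 6.97% lower. Besides Col23a1 these were Col16a1 (36.3 and 33.5 to 76.4 and 62.0 RPKM), Col8a1 (61.1 and 116 to 197 and 165 RPKM) and Col4a5 (16.9 and 13.9 to 42.7 and 30.3 RPKM), which were higher, and Col15a1 (1.59 and 3.87 to 0.394 and 1.03 RPKM), Col8a2, Col6a1, Col5a3 and Col11a1, which were lower. In the difference from the Cre-ER control 0 members passed without the block, where 0.111% of all genes were higher and 0.0317% lower, and 5 had an unadjusted p under 0.05. With the block Col4a5 (1.21, adjusted p = 0.0308) and Col15a1 (-1.07, adjusted p = 0.0309) passed, where 1.43% and 1.05% of all genes were higher and lower. Of 14 basement membrane partners 1 rose, the laminin chain Lamc1 (83.5 and 95.6 to 140.9 and 171.5 RPKM), and 0 of the tested modification, export and receptor genes passed. The Wapl cultures carried the highest macrophage marker sums, 2380 to 3290 RPKM before and 729 to 2010 RPKM after hydroxytamoxifen, with 0 of 10 markers called. The fibroblast marker S100a4 (1.79, adjusted p = 0.0367) and the epithelial marker Cdh1 (0.72, adjusted p = 0.0315) were higher. The part of these markers was not tested.

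Smc3 and Ctcf deletion were compared directly in a test of the difference between their changes. Col15a1 was lowered more after Smc3 deletion (difference -1.54, SE 0.43, adjusted p = 0.0352) and Col8a2 more after Adeno-Cre in Ctcf floxed cells (difference 1.69, SE 0.49, adjusted p = 0.0457), where 3.59% and 3.47% of all genes passed in these directions. Adeno-Cre in wild-type cells changed Col8a2 by -1.42. Ctcf deletion differed from that control by 0.061 for this gene (limma adjusted p = 0.9998). Col8a2 was at 28.9, 63.4, 39.0 and 78.3 RPKM in untreated Smc3 clones and 40.6, 76.4, 64.7 and 71.7 RPKM in treated ones. With the block 16 members differed, 9 lower and 7 higher, where 11.8% and 12.3% of all genes did. The calls were lost without any of Ctcf untreated clone 2, Ctcf treated clones 1 and 2, Smc3 untreated clone 1 and Smc3 treated clones 2, 3 and 4, and 8 members passed without Smc3 treated clone 1. These 2 deletions were induced in different ways, by hydroxytamoxifen and by Adeno-Cre, which cannot be told apart from the deleted gene in this test.

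Nascent RNA was read by global run-on sequencing (GRO-seq), in which engaged polymerases extend their transcripts in isolated nuclei, in Ctcf(fl/fl) Wapl(fl/fl) cells. The deposited columns pool clones 1 and 2, separately for the untreated and the Adeno-Cre cells, so no test is possible. Polyadenylated RNA of these cells came from clones 3 and 4. Wild-type nascent values come without a separate Adeno-Cre column, so the changes below include any effect of the virus alone. Every column was scaled to the same sum, and values are therefore shares of nascent RNA. Of 23 members with a value of at least 2 in either column, 15 were at least 2-fold lower after Adeno-Cre and 0 higher, where 37.0% of all genes were lower and 6.62% higher. The median ratio was 0.368 for the members and 0.589 for all genes, and with the latter set to 1 the count was 8. The share of all genes under that setting is not given, so the 8 has no background. Of the 15, Col6a1, Col6a2, Col11a2, Col24a1 and Col27a1 reached a value of 2 only in the untreated column. Their fall is therefore not independent of this minimum.

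Col6a1 changed most, from 3.98 to 0.298 (ratio 0.0749), followed by Col11a1 from 19.4 to 2.08 (0.107), Col12a1 from 101.3 to 12.3 (0.122) and Col1a1 from 128.6 to 25.3 (0.197). Col4a1 went from 34.3 to 8.07, Col5a1 from 28.9 to 6.83, Col6a2 from 4.51 to 1.12 and Col1a2 from 105.0 to 28.1. These 8 were also lower in the polyadenylated RNA of the treated library, which came from another clone (clone 4), although Col1a1 and Col4a1 missed the threshold there. Of the other members at least 2-fold lower in nascent RNA, Col3a1, Col4a2, Col24a1 and Col27a1 were lower there too. Col5a2 (0.18), Col8a1 (0.09) and Col11a2 (0.41 on the log2 scale, without the clone block) were not. The share of all genes lower in both was not counted. Col8a2 went from 3.46 to 2.89 (0.836) in nascent RNA, where its polyadenylated RNA had the largest fall of all members, and Col4a5 went from 7.32 to 5.02 (0.687) and Col16a1 from 3.03 to 2.05 (0.675).

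DRB, which blocks the release of paused polymerase into elongation, was applied for 3.5 h to Adeno-Cre cells, in 1 library. All 15 members with a value of at least 2 were at least 2-fold lower than in Adeno-Cre cells without DRB, where 38.4% of all genes were lower and 16.0% higher. Col3a1 went from 59.0 to 5.93, Col1a2 from 28.1 to 4.43, Col8a1 from 18.5 to 2.69 and Col11a1 from 2.08 to 0.122, while Col1a1 went from 25.3 to 11.5, the largest value under DRB. Col4a1, Col4a2, Col4a5, Col8a2, Col11a1 and Col16a1 reached a value of 2 only without DRB, so their fall is not independent of this minimum. With a minimum value of 10 there were 7 members, all of them lower, and the share of all genes at that minimum is not given. After 1 d without DRB, again in 1 library, all 15 members with a value of at least 2 in either library were at least 2-fold higher than under DRB. Of all genes 34.1% were. Col4a1, Col4a2, Col4a5, Col6a3, Col7a1 and Col16a1 reached that value only after the washout, so their rise is not independent of this minimum. Against Adeno-Cre cells never given DRB, 1 of 17 was past 2-fold, Col8a2 (2.89 to 1.28), where 8.84% of all genes were lower and 7.91% higher. The median ratio of the members was 1.25 and that of all genes 1.08, and Col1a1 stood at 26.0, Col3a1 at 69.0 and Col5a2 at 42.4.

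**Figure D4:**
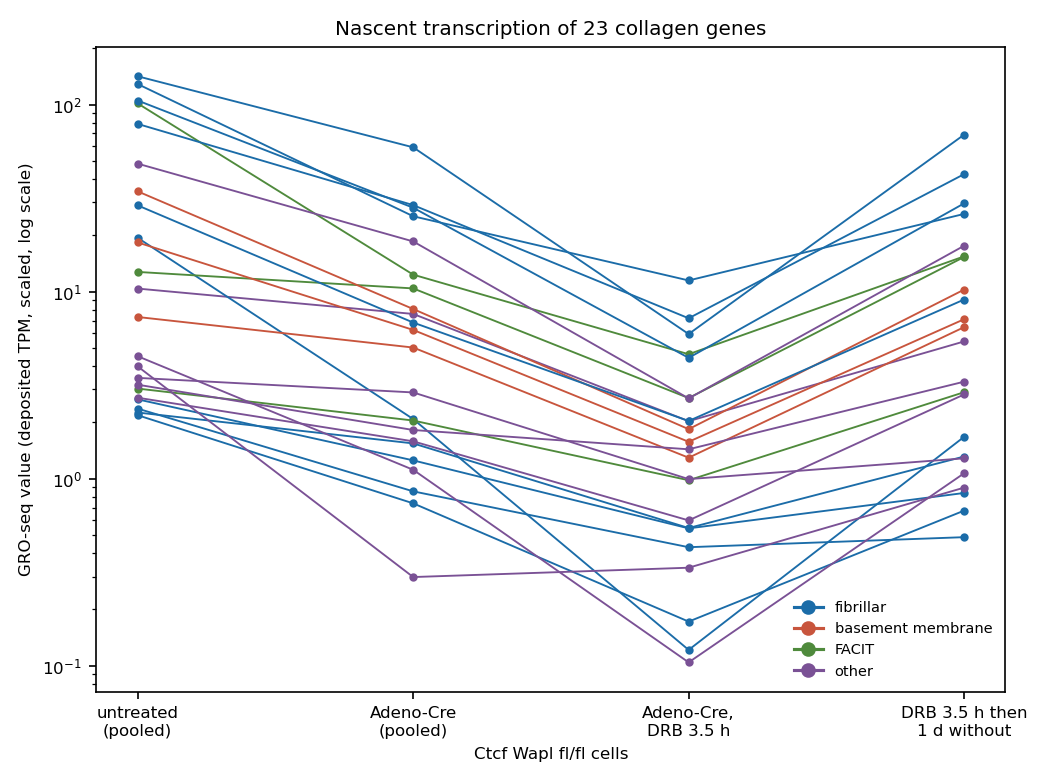
GRO-seq values (y axis, log scale) of 23 collagen genes in 4 columns of Ctcf Wapl floxed cells, coloured by class, with lines joining the values of 1 gene. The untreated and Adeno-Cre columns are pooled and the DRB columns single libraries multiplied by 2.0. All lines but that of Col6a1 (0.298 to 0.334) descend from Adeno-Cre to DRB, and all 23 lie higher after the washout than under DRB.

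A second RPKM table, normalized on its own, holds 2 further libraries with the same label, clone 3 of the double-floxed cells after Adeno-Cre, called A and B here in column order. Their Ctcf RNA was 3.17 and 7.61 RPKM and their Wapl RNA 0.902 and 2.09 RPKM, so the library labelled Adeno-Cre that is called B lay above all 3 Adeno-Cre libraries of Ctcf floxed cells in the main table (3.76 to 4.23 RPKM of Ctcf) and below the untreated ones. The labels name the table after serum stimulation but give both libraries the same treatment, so whether A, B or both had serum cannot be said, and no test is possible. Of 27 members with at least 1 RPKM in either library, 12 were at least 2-fold higher in B and 1 was lower, where 12.4% of all genes were higher and 22.4% lower. The median ratio of B to A was 1.92 for the members and 0.837 for all genes.

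The largest ratios of B to A were those of Col2a1 (0.0941 and 1.60 RPKM), Col27a1 (0.38 and 6.09 RPKM), Col15a1 (0.125 and 1.19 RPKM), Col11a1 (5.02 and 45.8 RPKM), Col8a2 (3.06 and 21.7 RPKM), Col28a1 (2.00 and 9.44 RPKM), Col12a1 (52.8 and 248 RPKM) and Col5a3 (15.0 and 55.9 RPKM). Col23a1 was lower in B (1.81 and 0.643 RPKM). Col2a1, Col27a1 and Col15a1 reached 1 RPKM only in B and Col23a1 only in A, so these ratios are not independent of the filter. Set beside the treated clone 4 library of the main table, library A had 3.06 against 2.18 RPKM of Col8a2 and 52.8 against 67.3 RPKM of Col12a1, but 99.4 against 23.1 RPKM of Col6a2, 141.4 against 57.8 RPKM of Col6a1 and 39.3 against 115.7 RPKM of Col10a1. Set beside untreated clone 3, library B had 21.7 against 25.4 RPKM of Col8a2 and 229 against 265.5 RPKM of Col6a2, but 55.9 against 19.1 RPKM of Col5a3. These levels come from tables that were normalized separately and are given without a test.

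**Figure D5:**
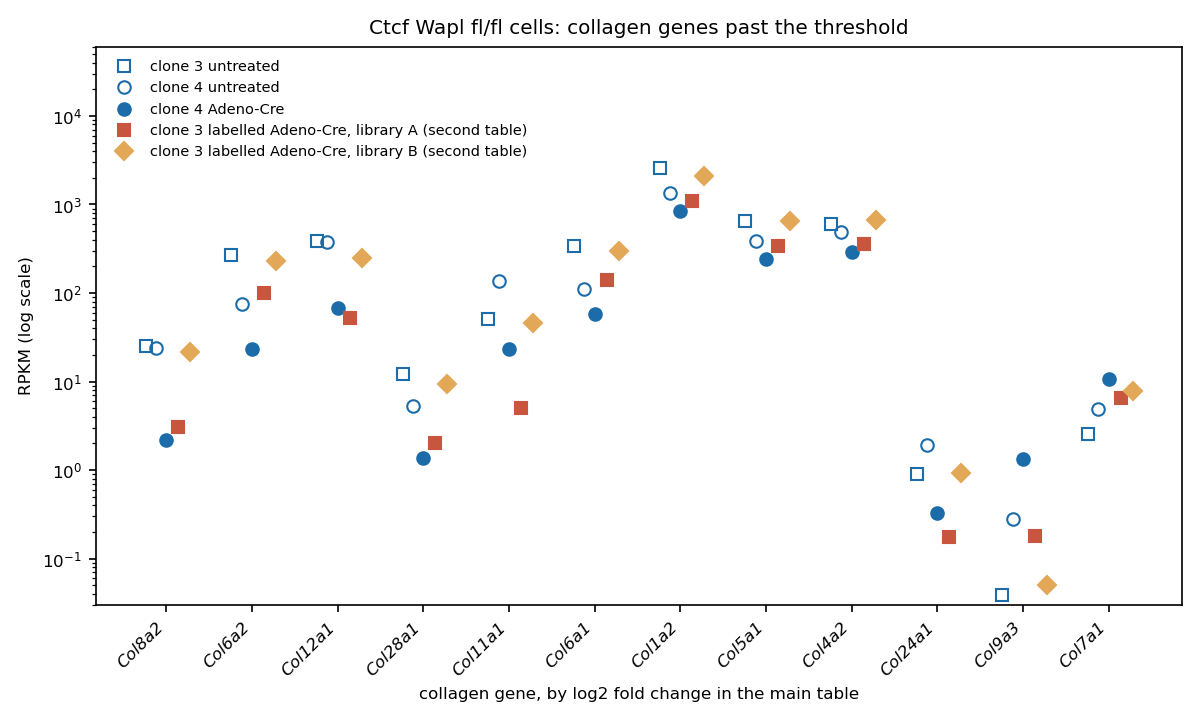
RPKM (y axis, log scale) of the 12 collagen genes past the threshold after Ctcf and Wapl deletion, in the 3 libraries of the main table (blue, open when untreated) and libraries A and B of the separately normalized second table (red squares and yellow diamonds). Library A lies below both untreated libraries in Col8a2, Col12a1, Col28a1, Col11a1 and Col1a2 and between them in Col6a1 and Col6a2, and library B lies above A in every gene shown but Col9a3.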

How the data were processed

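RNA-seq was taken from 29 libraries and GRO-seq from 10 of the 103 samples, and ChIP-seq (64) was not used. Per the submitters' processing notes, HTSeq, bedtools, MACS 1.4.2, Bowtie 0.12.5 and TopHat 1.4.1 and 1.3.1 were used with mm9, with no role given, and whether counting used strand is not given in the sources used here. RNA-seq values were deposited as RPKM per gene. GRO-seq values were deposited by the authors on a scale like TPM, with columns summing to 200000 (pools) or 100000 (single libraries, multiplied here by 2.0). In the main set of RPKM values, all 18155 genes above 0 in at least 3 libraries gave whole reads within 0.02 reads.

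The 12604 genes that reached 1 RPKM in 2 or more of 27 libraries were fitted with limma 3.58.1 (R 4.3.3) on log2(RPKM + 1), a scale that understates changes of low genes, in 1 model of 12 groups with 15 residual degrees of freedom and Benjamini-Hochberg adjustment over all genes at 0.05. A second model blocked by clone, which left 7 residual degrees of freedom. Untreated and treated libraries of 1 clone share their cells, and their deviations correlated at 0.468 to 0.759, except in Cre-ER cells (-0.198) and the double-floxed cells (1 pair). Libraries of 1 group correlated at 0.948 to 0.991. The test was checked on simulated data.

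Named are members past the threshold in any comparison, members with a mean of at least 50 RPKM, and the 8 largest ratios in untested tables. For the partner genes, 1 result is not reported here. Members and gene lists were chosen with earlier results of these data known. Promoters come from RefSeq on GRCm38.p6, matched by symbol for 35 of 43 genes, and not matched were Col1a1, Col2a1, Col5a2, Col12a1, Col14a1, Col4a3, Col9a3 and Col22a1. Of 2 Col6a2 starts the more upstream was used. From the second set of RPKM values, 529 repeated lines were dropped. Alternatives were another pseudocount, no filter, median-of-ratios rescaling, removal of each library's length trend, the clone block and leaving out each library.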

Additional observations from a re-analysis of the deposited data

Results flagged for a closer look

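In the 4 hydroxytamoxifen-treated Smc3 libraries, 1 library stood far from the others for 4 values, of 70 groups of 4 checked, where chance gives about 1 in 20. Col3a1 was at 1190 RPKM in clone 3, with the nearest library at 1840 RPKM. Col8a1 was at 225.1 RPKM in clone 4, with the others between 164.6 and 167.4 RPKM. Col9a3 was at 1.154 RPKM in clone 3, with the nearest at 0.213 RPKM. The summed RPKM of the FACIT genes was 233.3 in clone 1, with the nearest at 153.9, and Col12a1 made up 176.7 RPKM of it.

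The tests of a difference between 2 treatments' changes that passed were those of Col28a1 (-1.926) and Col6a2 (-2.502) between the combined Ctcf and Wapl deletion and Adeno-Cre in wild-type cells, of Col15a1 (-1.542) and Col8a2 (1.688) between Smc3 and Ctcf deletion, and of Col15a1 (-1.875) between Smc3 deletion and hydroxytamoxifen in Cre-ER cells, all on the log2 scale.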

How the results depend on the processing

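The clone as a replicate block gave 9 collagen genes for Ctcf deletion, 9 for Wapl deletion, 2 for Adeno-Cre in wild-type cells, 17 for Smc3 and 15 for the combined deletion. For the differences it gave 2 (Ctcf minus wild type), 7 (combined minus wild type), 12 (Smc3 minus Cre-ER), 2 (Wapl minus Cre-ER) and 16 (Smc3 minus Ctcf). Crossing the Cre-ER clones in the block, an alternative chosen after seeing the data, gave 12 and 2 for both differences from Cre-ER cells. Over all genes the block raised Smc3 calls from 1181 higher and 706 lower to 3025 and 1591, Ctcf calls from 635 and 331 to 1977 and 1178, Wapl calls from 189 and 117 to 960 and 879, and wild-type Adeno-Cre calls from 340 and 68 to 1987 and 912. A pseudocount of 0.1 gave 2 for Ctcf and 1 for combined minus wild type. With all genes above 0, Ctcf gave 1, Smc3 minus Cre-ER 0 and Smc3 minus Ctcf 1, and rescaling gave 1 for Smc3 minus Ctcf. Removing the length trend gave 2 for Ctcf, 2 for Wapl, 4 for combined minus wild type, 0 for Smc3 minus Cre-ER and 1 for Smc3 minus Ctcf. The cause of these shifts was not tested.

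Rescaling moved the higher and lower calls over all genes to 211 and 86 for wild-type Adeno-Cre, to 194 and 261 (from 271 and 217) for combined minus wild type and to 37 and 106 (from 59 and 96) for Smc3 minus Cre-ER, and removing the length trend moved Ctcf to 543 and 432. Leaving out 1 library gave 10 to 15 collagen genes for Smc3, 8 to 12 for the combined deletion, 0 to 1 for Ctcf, 0 to 1 for Wapl, 0 to 4 for combined minus wild type, 0 to 7 for Smc3 minus Cre-ER, 0 to 8 for Smc3 minus Ctcf and 0 for the others. The only treated double-floxed library could not be left out. Shares of all genes in the fits that left out 1 library are not given, so these counts, here and above, have no background. Of 383 checks of single genes, 295 kept their side of the threshold, 88 lost it and 0 reversed. In GRO-seq, setting the median ratio of all genes to 1 gave 8 genes for Adeno-Cre, and a minimum of 10 gave 7 for DRB and 0 for the washout, where fewer genes were measured. Shares of all genes under these GRO-seq settings are not given.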
